A study of Sus scrofa with 12 samples.

Results

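The keratins KRT7, KRT8, KRT18, KRT19, KRT5, KRT14, KRT17 and KRT80 were looked up by their pig gene symbols among the 19681 Ensembl gene identifiers of the expression tables. Of these 8 keratins, 4 were found: KRT8 (ENSSSCG00000000252), KRT18 (ENSSSCG00000000253), KRT7 (ENSSSCG00000038966) and KRT80 (ENSSSCG00000040636). The symbols KRT19, KRT5 and KRT14 belonged to 0 identifiers of the table of gene names, and KRT17 belonged to 1 identifier that was not among those of the expression tables, so these 4 keratins were not analysed here. The 8 symbols were listed with earlier results of these data known, and the 4 keratins found were taken by name, with no limit on their values.

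Keratins are the intermediate filament proteins of epithelial cells, and each filament pairs a type I keratin with a type II keratin. KRT8 (type II) with KRT18 (type I) is the pair of simple epithelia and the earliest keratin pair of the mammalian embryo, while KRT7 (type II) is found in ducts, glands, amnion and trophoblast, usually beside KRT19 (type I). KRT5 and KRT14 form the pair of the basal layer of stratified epithelia, KRT17 is a type I keratin of skin appendages and wounded skin, and KRT80 is a type II keratin found in many epithelia. Mature endothelial cells build their intermediate filaments mainly from vimentin.

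The study followed porcine induced pluripotent stem cells on their way to endothelial cells by RNA sequencing, to learn which genes change as endothelial identity is acquired. The 12 libraries fell into 4 groups of 3 replicates, lettered A, B and C. IEC2, IEC4 and IEC12 were the induced endothelial cells at day 2, day 4 and day 12 of differentiation, and AOC was an established porcine endothelial cell line, which was not made from these stem cells. The genotype, strain, animal age and sex behind the cells are not given in the sources used here.

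All 3 IEC groups shared the start of the protocol, in which the stem cells were plated on Matrigel with the ROCK inhibitor Y27632 and then received the GSK3 inhibitor CHIR99021 in a medium without FGF2 and LIF. IEC2 marks the end of the CHIR99021 step. IEC4 additionally received BMP4, FGF2 and VEGF after CHIR99021, and IEC12 was then kept in the endothelial medium EGM-2 with VEGF. The day and the medium therefore changed together, and their parts cannot be told apart. The study sorted CD31-positive cells at day 12 as a group of its own that is not analysed here, so the IEC12 libraries are unsorted cells. The AOC libraries carry no day, so a difference from AOC is one of cell origin and culture as well as of stage.

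Levels are given as FPKM, the fragments per kilobase of a transcript relative to all fragments of the library. FPKM is a level per transcript length, and comparisons of it between genes are only approximate. Per library, all FPKM values added up to 335976 at the least and 457194 at the most, and 8357 to 10467 genes reached an FPKM of 1. The number of reads behind a value is unknown, so no counting interval is given, and a keratin with an FPKM of 0 is only said to be listed at 0. In these bulk samples, fewer cells of a type and less RNA per cell cannot be told apart. The summed FPKM of 11 endothelial marker genes was 298 to 423 in AOC, whereas IEC2 had 3.44 to 5.97, IEC4 had 2.04 to 3.39 and IEC12 had 0.425 to 0.609. CDH5, the cadherin of endothelial junctions, was listed at 0 in all 9 IEC libraries, and PECAM1 (CD31) lay between 0.0197 and 0.105 in IEC12, in libraries labelled as induced endothelial cells. KDR, a VEGF receptor, was the exception in IEC2, at 2.42 to 3.99 FPKM against 1.31 to 1.46 in AOC, and was lower in AOC than in IEC2 by a difference of -0.72 ± 0.17 on the log2(FPKM + 1) scale (limma adjusted p = 0.00235, and 0.0686 with a pseudocount of 0.1). It was at 0 to 0.302 FPKM in IEC4 and at 0 to 0.0374 in IEC12.

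By the positions of the RefSeq annotation of the Sscrofa11.1 assembly, the 4 keratin genes lie together on chromosome 5. KRT80 is at chr5:17482454-17506462 and KRT7 at chr5:17553192-17570582. KRT8 is at chr5:18172423-18180277 and KRT18 at chr5:18217686-18221432, with 37408 bases and 1 annotated gene between them. KRT18 thus lies beside 3 type II keratin genes although it is a type I keratin.

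All 4 keratins were higher in IEC4 than in either of the other IEC groups. KRT8 reached a mean of 494 FPKM in IEC4 against 15.6 in IEC2 and 9.87 in IEC12, KRT7 reached 32.6 against 0.367 and 0.0861, KRT18 reached 19.3 against 0.410 and 0.536, and KRT80 reached 2.62 against 0.652 and 0.0349. For each of the 4, the lowest IEC4 library was above the highest IEC2 library and above the highest IEC12 library. Within IEC4, replicate C had the highest level of each keratin.

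**Figure D1:**
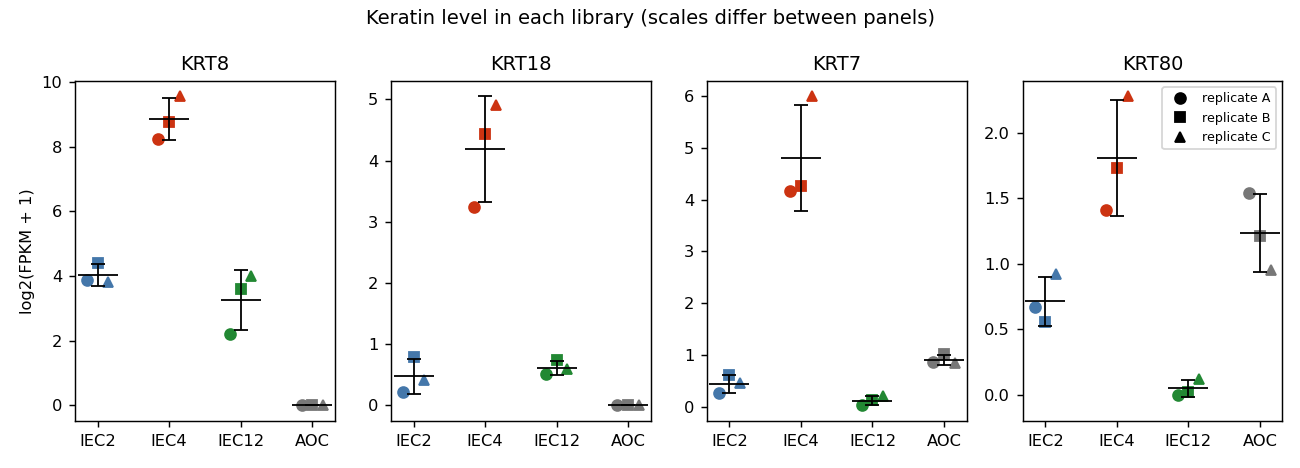
Level of KRT8, KRT18, KRT7 and KRT80 in each of the 12 libraries, as log2(FPKM + 1) on the vertical axis, whose scale differs between panels, with the 4 groups along the horizontal axis. Points are libraries, long bars are group means and error bars are 1 SD (n = 3). IEC4 stands above IEC2 and IEC12 in every panel, and KRT80 is the keratin for which AOC and IEC4 overlap.

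KRT8, the type II partner of the simple epithelial pair, was by far the most abundant of the 4 in the IEC libraries. Its level was 13.6, 20.3 and 12.9 FPKM in IEC2 A, B and C. In IEC4 it was 300.4, 434.9 and 747.8 FPKM. In IEC12 it was 3.64, 11.1 and 14.9 FPKM, and in AOC it was 0.0106 FPKM in replicate A and listed at 0 in B and C. The 3 IEC4 libraries were thus set apart from all others, IEC2 and IEC12 overlapped, and AOC held next to none. Among all 19681 genes ranked by FPKM, KRT8 stood at places 148, 86 and 46 in the IEC4 libraries, at places 2608 to 3560 in IEC2 and at places 3344 to 5975 in IEC12.

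Mean KRT8 FPKM was 31.7-fold higher in IEC4 than in IEC2 and 50.1-fold higher in IEC4 than in IEC12. On the scale of log2(FPKM + 1), which understates changes of low genes, the limma fit gave a rise of 4.83 ± 0.45 (SE) from IEC2 to IEC4 (adjusted p = 5.53e-05, n = 3 each). From IEC4 to IEC12 KRT8 fell by 5.59 ± 0.45 on the same scale (adjusted p = 3.39e-05). The difference between IEC12 and IEC2, -0.76 ± 0.45, did not pass the limit of 0.05 (limma adjusted p = 0.203). KRT8 was lower in AOC than in IEC2, IEC4 and IEC12 (limma adjusted p = 4.75e-06, 8.38e-09 and 3.41e-05). The order of KRT8 levels was therefore IEC4, IEC2, IEC12 and AOC, and of the neighbours in that order only IEC2 and IEC12 did not differ beyond their spread.

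KRT18, the type I partner of KRT8, followed KRT8 at a much lower level. It measured 0.169, 0.723 and 0.337 FPKM in IEC2 A, B and C, and 8.42, 20.5 and 28.9 FPKM in IEC4. In IEC12 it measured 0.423, 0.667 and 0.518 FPKM, and it was listed at 0 in all 3 AOC libraries. KRT18 was above 1 FPKM in the IEC4 libraries alone. Its mean FPKM in IEC4 was 47.0-fold that in IEC2 and 36.0-fold that in IEC12.

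The limma differences of KRT18 on the log2(FPKM + 1) scale were 3.71 ± 0.37 (SE) from IEC2 to IEC4 (adjusted p = 7.36e-05) and -3.57 ± 0.37 from IEC4 to IEC12 (adjusted p = 0.000115). IEC12 and IEC2 differed by 0.14 ± 0.37, within the spread (adjusted p = 0.784). With AOC listed at 0, no fold is given. AOC was lower than IEC4 (limma adjusted p = 5.66e-07), whereas the tests against IEC2 and IEC12 did not pass (adjusted p = 0.227 and 0.131). KRT18 was therefore highest in IEC4, followed by IEC12, IEC2 and AOC, and the differences among IEC12, IEC2 and AOC did not pass. Every IEC2 and IEC12 library nevertheless lay above the AOC libraries, and the AOC tests used a spread pooled over all 12 libraries, IEC4 included. With a pseudocount of 0.1 in place of 1, the AOC comparisons with IEC2 and IEC12 did pass (adjusted p = 0.0018 and 0.000575), with KRT18 lower in AOC.

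KRT7, the type II keratin of ducts, amnion and trophoblast, had the largest folds of mean FPKM of the 4 for IEC4 over IEC2 and over IEC12. It was at 0.197, 0.526 and 0.377 FPKM in IEC2 A, B and C. In IEC4 it was at 17.1, 18.2 and 62.5 FPKM. In IEC12 it was at 0.0194, 0.0898 and 0.149 FPKM, and in AOC at 0.825, 1.03 and 0.800 FPKM. No IEC group overlapped another, AOC lay between IEC4 and IEC2 without overlap, and IEC4 C stood well above IEC4 A and B. Mean KRT7 FPKM in IEC4 was 88.9-fold that in IEC2 and 378-fold that in IEC12, where the low denominators make the folds unsteady.

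On the log2(FPKM + 1) scale KRT7 rose by 4.37 ± 0.41 (SE) from IEC2 to IEC4 (limma adjusted p = 5.67e-05) and fell by 4.69 ± 0.41 from IEC4 to IEC12 (adjusted p = 5e-05). The difference of -0.33 ± 0.41 between IEC12 and IEC2 did not pass (adjusted p = 0.551). AOC was 3.90 below IEC4 on this scale (a difference of -3.90 ± 0.38, adjusted p = 2.83e-06). Its differences from IEC2 and IEC12, 0.47 ± 0.38 and 0.80 ± 0.38, did not pass (adjusted p = 0.292 and 0.0879). The last of these passed after median-of-ratios scaling of the libraries (0.92, adjusted p = 0.0409) and with a pseudocount of 0.1 (2.46, adjusted p = 0.00114). The order of KRT7 levels was IEC4, AOC, IEC2 and IEC12, and in it the differences between AOC and IEC2 and between IEC2 and IEC12 did not pass.

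KRT80, a type II keratin of many epithelia, was the keratin with the smallest rise in IEC4 and the only one of the 4 whose levels in AOC and IEC4 overlapped. It was at 0.592, 0.470 and 0.893 FPKM in IEC2 A, B and C and at 1.66, 2.32 and 3.87 FPKM in IEC4. In IEC12 it was listed at 0 in A and at 0.0160 and 0.0888 FPKM in B and C, and in AOC it was at 1.91, 1.31 and 0.932 FPKM. The AOC library A lay above the IEC4 library A, and all AOC libraries lay above all IEC2 libraries. Mean FPKM in IEC4 was 4.02-fold that in IEC2 and 74.9-fold that in IEC12.

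In the limma fit KRT80 rose by 1.09 ± 0.23 (SE) on the log2(FPKM + 1) scale from IEC2 to IEC4 (adjusted p = 0.00458) and fell by 1.76 ± 0.23 from IEC4 to IEC12 (adjusted p = 0.000367). It was the only one of the 4 to be called between IEC12 and IEC2, at -0.67 ± 0.23 (adjusted p = 0.0379), and this call was lost whichever library of either group was left out (adjusted p = 0.0566 to 0.122). KRT80 was higher in AOC than in IEC12 by 1.19 ± 0.22 (adjusted p = 0.000657). It was not called against IEC2 (0.52 ± 0.22, adjusted p = 0.0584). After median-of-ratios scaling or without AOC C the latter was called (adjusted p = 0.0127 and 0.0404). The lower level in AOC than in IEC4, -0.57 ± 0.22 (adjusted p = 0.036), was not called after median-of-ratios scaling (-0.24, adjusted p = 0.325), with a pseudocount of 0.1 (adjusted p = 0.0855), with no filter (adjusted p = 0.0589) or with only these groups in the fit (adjusted p = 0.0698). It was also lost without AOC B (adjusted p = 0.0855), AOC C (adjusted p = 0.15), IEC4 B (adjusted p = 0.0573) or IEC4 C (adjusted p = 0.147). In the order IEC4, AOC, IEC2 and IEC12, the difference between AOC and IEC2 did not pass, although all AOC libraries lay above all IEC2 libraries. The other neighbours differed at a limma adjusted p no higher than 0.0379.

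**Figure D2:**
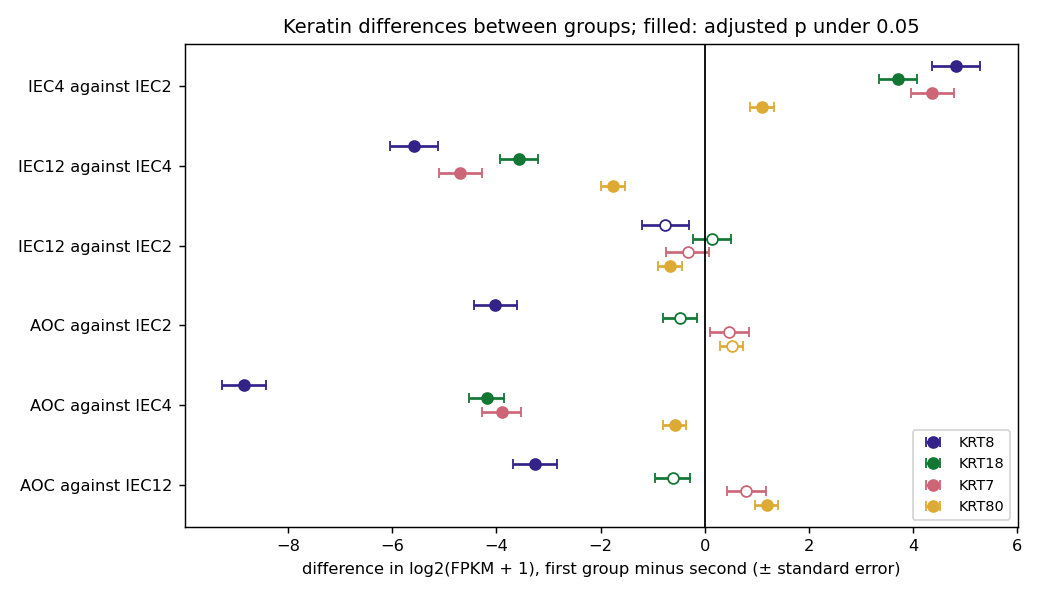
Difference in log2(FPKM + 1) of KRT8, KRT18, KRT7 and KRT80 in 6 comparisons, first group minus second, with the standard error of the limma fit as error bars. Filled points had an adjusted p under 0.05. All 4 keratins lie right of 0 for IEC4 against IEC2 and left of 0 for IEC12 against IEC4, and the sizes for KRT8 and KRT18 against AOC depend on the pseudocount because AOC was listed at or next to 0.

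Read against all genes, 4 of the 4 keratins tested were called higher in IEC4 than in IEC2, where 24.8% of the 10542 genes tested were called higher (37.3% in either direction). From IEC4 to IEC12, 4 of 4 were called lower, against 26.9% of all genes tested (44.2% in either direction). Between IEC12 and IEC2, 1 of 4 (KRT80) was called lower, against 19.3% (43.6% in either direction). In the comparisons with AOC, fitted on 11053 genes, 1 of 4 (KRT8) was lower in AOC than in IEC2 against 37.1% of all genes (63.8% in either direction). There 4 of 4 were lower in AOC than in IEC4, against 47.0% (69.1% in either direction). AOC against IEC12 gave 1 keratin higher (KRT80) and 1 lower (KRT8), against 22.4% and 36.2% of all genes (58.5% in either direction).

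These counts are a description, because KRT18 and KRT7 reached the filter of 1 FPKM in 3 libraries through IEC4 (and, for KRT7, AOC B), and KRT80 entered the fit of the IEC libraries through IEC4 alone. KRT8 passed the filter in each IEC group. With no filter on low values, 4 of 4 were still called in both steps into and out of IEC4. The comparisons share groups, so a rise into IEC4 and a fall out of it rest in part on the same 3 IEC4 libraries.

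The median difference of the 4 keratins was 4.04 for IEC4 against IEC2 and -4.13 for IEC12 against IEC4, on the log2(FPKM + 1) scale. The median of all genes tested was 0.20 and -0.15 in these comparisons and became -0.03 and 0.06 after median-of-ratios scaling. The share of called genes that were higher moved with it, from 66.5% to 47.9% for IEC4 against IEC2 and from 39.2% to 53.0% for IEC12 against IEC4. With equal library totals it was 60.7% and 25.6%. For AOC against IEC2, IEC4 and IEC12 the share was 41.9%, 32.0% and 38.2%, after median-of-ratios scaling 50.9%, 50.7% and 51.1%, and with equal totals 31.1%, 24.1% and 36.1%. For IEC12 against IEC2 it was 55.7%, 51.9% and 36.6% in the same order. The 4 keratins stayed higher in IEC4 than in IEC2 and IEC12 under each scaling.

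IEC4 C had the highest levels of all 4 keratins, at 3.54 times the mean of IEC4 A and B for KRT7, 2.03 for KRT8, 2.00 for KRT18 and 1.94 for KRT80. Without this library, and with the same genes tested, the rise from IEC2 to IEC4 on the log2 scale was 4.48 for KRT8 (limma adjusted p = 0.000272), 3.78 for KRT7 (1.04e-05), 3.35 for KRT18 (0.000212) and 0.86 for KRT80 (0.00811). All 4 were still called. IEC12 A likewise had the lowest level of each of the 4 within IEC12.

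Ratios between the keratins differed between libraries. The ratio of KRT8 to KRT18 FPKM was 28.0 to 80.1 in IEC2, 21.2 to 35.7 in IEC4, then 8.60 to 28.8 in IEC12, so the range of IEC4 overlapped both others. KRT8 exceeded KRT18, its filament partner, in every IEC library. The ratio of KRT8 to KRT7 was 34.3 to 68.8 in IEC2, 12.0 to 23.8 in IEC4, then 99.9 to 188 in IEC12, with no overlap between the 3 groups. KRT7 thus made up a larger share relative to KRT8 in IEC4 than in the other stages. The ratios in IEC2 and IEC12 rest on KRT7 and KRT18 levels below 1 FPKM. Keratins are a family of similar sequences, and how reads that matched several genes were shared between them is not given in the sources used here, which makes ratios between keratins less certain than the change of each.

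As a description over the 12 libraries, Pearson r of log2(FPKM + 1) was 0.949 between KRT18 and KRT7, 0.919 between KRT18 and KRT8, 0.801 between KRT8 and KRT7, and 0.833 between KRT7 and KRT80. It was 0.665 between KRT18 and KRT80 and 0.440 between KRT8 and KRT80. The 12 points fall into 4 groups of 3 libraries and are not independent of each other. KRT80 stood furthest from KRT8, and AOC held KRT80 at 0.932 to 1.91 FPKM where KRT8 was listed at or next to 0.

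The genes with a pattern most like each keratin were taken by the same r, 3 per keratin. For KRT8 they were TYRO3 (a receptor tyrosine kinase, r = 0.989), AGRN (the proteoglycan agrin, r = 0.984) and TNNT1 (slow skeletal troponin T, r = 0.984), and TNNT1 averaged 50.4 ± 8.41 FPKM (SD, n = 3) in IEC4 against 6.80 ± 1.78 in IEC2 and 6.70 ± 3.49 in IEC12. For KRT18 they were ELOVL7 (a fatty acid elongase, r = 0.991), CERS6 (a ceramide synthase, r = 0.990) and LCN2 (lipocalin 2, r = 0.987). For KRT7 they were BEST2 (a bestrophin channel), S100A14 (an S100 protein) and MMP7 (matrilysin), with r = 0.987, 0.987 and 0.986, and each averaged under 0.1 FPKM in IEC2, IEC12 and AOC. For KRT80 they were SLC20A1 (a phosphate transporter, r = 0.968), MRTFB (a cofactor of serum response factor, r = 0.963) and ECE1 (endothelin converting enzyme, r = 0.957), and ECE1 averaged 12.4 ± 4.18 FPKM in IEC4 and 9.24 ± 3.11 in AOC against 3.60 ± 0.60 in IEC2 and 1.92 ± 0.71 in IEC12.

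Other keratins gave little signal. Of 47 further keratin symbols, 24 were found and 22 of them stayed under 1 FPKM in all 12 libraries. KRT10, a type I keratin of stratified epithelia, was at 6.26, 4.10 and 7.45 FPKM in IEC2, 2.41, 3.62 and 6.83 in IEC4, 12.3, 9.32 and 7.04 in IEC12, and 9.56, 8.09 and 9.61 in AOC. It was the only other keratin tested, and its direction was opposite to that of the 4, being higher in IEC12 than in IEC4 by 1.05 ± 0.33 (limma adjusted p = 0.0263) and higher in AOC than in IEC4 by 1.01 ± 0.30 (adjusted p = 0.00944). The IEC12 call was lost without IEC4 A, IEC4 B, IEC12 A or IEC12 B (adjusted p = 0.067 to 0.0947) and without the filter (adjusted p = 0.0564). KRT23, a type I keratin named here after its values were seen, was listed at 0 outside IEC4 and was at 0.848, 0.811 and 8.10 FPKM in IEC4 A, B and C. It was not tested, because it did not reach the filter.

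Vimentin, the intermediate filament of mesenchymal and endothelial cells, had an order across the groups unlike that of the keratins. VIM was at 393, 418 and 425 FPKM in IEC2 A, B and C, at 289.9, 281 and 267 in IEC4, at 62.9, 97.6 and 113 in IEC12 and at 855, 839 and 647 in AOC. It fell by 1.65 ± 0.19 on the log2 scale from IEC4 to IEC12 (limma adjusted p = 0.000198) and was higher in AOC than in IEC4 by 1.47 ± 0.19 (adjusted p = 2.57e-05). The smaller fall from IEC2 to IEC4, -0.56 ± 0.19 (adjusted p = 0.0419), was not called with equal library totals, without the filter, with the variance not tied to expression, or without any 1 library of these groups (adjusted p = 0.0601 to 0.101). The ratio of KRT8 to VIM FPKM was 0.0304 to 0.0484 in IEC2, 1.04 to 2.80 in IEC4, then 0.0579 to 0.132 in IEC12. KRT8 therefore exceeded vimentin in the 3 IEC4 libraries and in no other library.

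Of 15 other intermediate filament genes listed, 11 were found and 6 tested. From IEC2 to IEC4, 2 rose (NEFL and DES) and 1 fell (VIM), and from IEC4 to IEC12, 1 rose (NEFL) and 3 fell (LMNA, VIM and DES). Of all genes tested, 24.8% rose and 12.5% fell in the first step and 17.3% rose and 26.9% fell in the second. DES, the muscle filament desmin, reached the filter through IEC4 alone. NEFL, the neurofilament light chain, rose by 2.50 ± 0.26 into IEC4 (limma adjusted p = 8.8e-05) and by a further 1.01 ± 0.26 into IEC12 (adjusted p = 0.0109, and 0.0552 with a pseudocount of 0.1), from below 0.2 FPKM in IEC2 to between 7.96 and 15.9 in IEC12, where KRT18, KRT7 and KRT80 were low. LMNA, the nuclear lamin A/C, fell by 1.82 ± 0.61 from IEC4 to IEC12 (adjusted p = 0.0355), a call lost without IEC4 A, B or C, without the filter, or with only these groups in the fit (adjusted p = 0.0607 to 0.0904). Without IEC12 A, where LMNA was at 4.27 FPKM against 22.9 and 37.6 in B and C, the fall was 0.98 in size (a difference of -0.98, adjusted p = 0.0373). Against IEC4, AOC had 2 of the 6 higher (VIM and LMNB1, a nuclear B-type lamin) and 3 lower (NEFL, DES and LMNB2), beside 22.1% and 47.0% of all genes.

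Most tested genes of the desmosome and of the linkers that tie keratin filaments to it were, like the keratins, higher in IEC4 than in IEC2. Of 20 listed, 17 were found and 9 tested, and 6 rose from IEC2 to IEC4 (PKP2, DST, PKP4, JUP, DSC2 and PERP) while 0 fell, beside 24.8% and 12.5% of all genes tested. Their median difference was 1.01, beside 0.20 for all genes. From IEC4 to IEC12, 5 fell (PKP2, DST, PKP4, JUP and DSC2) and 1 rose (PERP), beside 26.9% and 17.3% of all genes, with a median of -0.86 beside -0.15 for all genes, and 4 fell after median-of-ratios scaling and 7 with equal library totals. AOC had 7 of the 9 lower than IEC4 and 0 higher, beside 47.0% and 22.1% of all genes, with a median of -2.55 beside -0.45. DSP, or desmoplakin, was among those not called. Its differences were 0.68 ± 0.24 into IEC4 and -0.60 ± 0.24 into IEC12 (limma adjusted p = 0.0538 and 0.07), and -0.35 ± 0.23 for AOC against IEC4 (adjusted p = 0.191). DSP reached the filter of the IEC fit only with the IEC4 libraries.

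PKP2, a plakophilin of the desmosomal plaque, was at 3.04, 3.44 and 3.30 FPKM in IEC2, 16.5, 15.7 and 32.3 in IEC4, and 3.67, 3.61 and 4.41 in IEC12. It rose by 2.33 ± 0.25 (limma adjusted p = 0.000126) and then fell by 2.13 ± 0.25 (adjusted p = 0.000235). JUP, or plakoglobin, rose by 1.45 ± 0.31 (adjusted p = 0.00572) and fell by 3.63 ± 0.31 (adjusted p = 4.54e-05), to between 0.194 and 1.14 FPKM in IEC12. DSC2, a desmosomal cadherin, rose by 1.16 ± 0.20 (adjusted p = 0.00194) and fell by 1.32 ± 0.20 (adjusted p = 0.000949). These 3 genes had the same direction as the keratins in both steps.

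PERP, a membrane protein of desmosomes, departed from the keratins after IEC4. It rose by 1.60 ± 0.23 from IEC2 to IEC4 (limma adjusted p = 0.00059) and by 0.85 ± 0.23 from IEC4 to IEC12 (adjusted p = 0.0139), the second call being lost without IEC4 A, IEC4 B or IEC12 B (adjusted p = 0.0552, 0.0567 and 0.052). DSG2, the desmoglein of simple epithelia, was at 7.60 to 14.0 FPKM in IEC2, 10.2 to 30.4 in IEC4, then 8.85 to 9.24 in IEC12, and neither step passed the test (adjusted p = 0.162 and 0.0624). Without IEC4 A both steps were called (adjusted p = 0.0355 and 0.0149), and the fall from IEC4 to IEC12 was also called with equal library totals (adjusted p = 0.0289) and with the replicate letter as a block (adjusted p = 0.0304). Both were low in AOC, with DSG2 listed at 0 in all 3 libraries and PERP at 0.0784 to 0.138 FPKM.

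**Figure D3:**
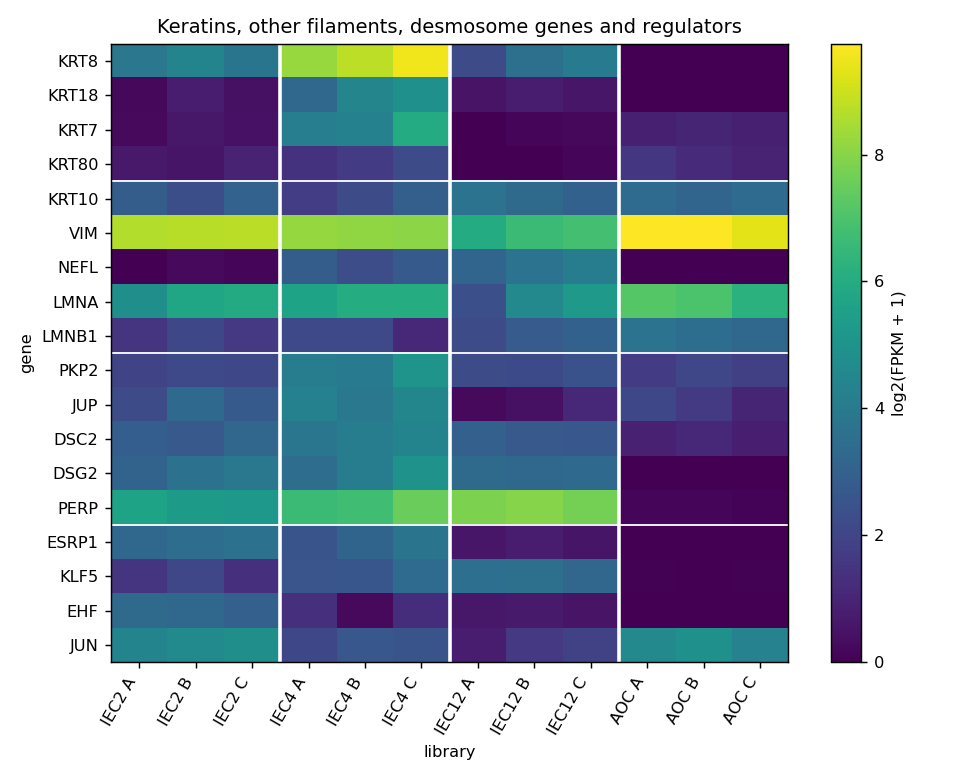
Level of the 4 keratins, KRT10, other filament genes, desmosome genes and transcription or splicing factors in each of the 12 libraries, as log2(FPKM + 1) in colour. Rows are genes, columns are libraries and white lines part the gene groups and the 4 sample groups. KRT8, KRT18 and KRT7 are brightest in the 3 IEC4 columns, with PKP2 and JUP, whereas PERP and NEFL are bright in IEC12 too.

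Transcription and splicing factors of epithelia did not move as 1 block. Of 19 listed, all were found and 11 tested. From IEC2 to IEC4, 5 rose (GRHL3, KLF4, ELF3, KLF5 and ETS2) and 4 fell (TFAP2A, FOSL1, EHF and JUN), and from IEC4 to IEC12, 0 rose and 6 fell (KLF4, ESRP1, ELF3, FOSL1, JUN and ETS2). All genes tested gave 24.8% higher and 12.5% lower in the first step and 17.3% and 26.9% in the second. ELF3 and ETS2 reached the filter through IEC4. Against IEC4, AOC had 1 higher (JUN) and 8 lower, beside 22.1% and 47.0% of all genes.

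KLF5, a Krüppel-like factor of proliferating epithelia, rose by 1.21 ± 0.28 into IEC4 (limma adjusted p = 0.00759) and stood at 8.23 to 11.0 FPKM in IEC12. It thus stayed up where the keratins were low, its difference between IEC12 and IEC4 being 0.60 ± 0.28 (adjusted p = 0.104). That difference was called after median-of-ratios scaling (0.80, adjusted p = 0.034) and without IEC4 C (0.86, adjusted p = 0.0277). EHF, an epithelial ETS factor, fell by 2.24 ± 0.29 into IEC4 (adjusted p = 0.000319) and JUN, an AP-1 subunit, fell by 2.21 ± 0.29 (adjusted p = 0.000376), opposite to the keratins. ESRP1, an epithelial splicing regulator, was at 8.83 to 11.3 FPKM in IEC2 and 4.83 to 12.4 in IEC4, a difference that did not pass (-0.32 ± 0.28, adjusted p = 0.39). It fell by 2.50 ± 0.28 from IEC4 to IEC12 (adjusted p = 0.000157), in the same direction as the keratins.

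Most tested epithelial markers, and the summed level of amnion and trophoblast markers, moved with the keratins, and their part in the keratin result was not tested. Of 14 epithelial markers, 12 were found, and their summed FPKM was 98.3 to 139.9 in IEC2, 241 to 825 in IEC4, 38.7 to 74.5 in IEC12 and 2.46 to 4.15 in AOC. Of the 7 tested, 6 rose from IEC2 to IEC4 and 7 fell from IEC4 to IEC12, beside 24.8% and 26.9% of all genes. Of these 7, 5 (CDH1, CLDN3, CLDN4, RAB25 and SPINT1) reached the filter only through IEC4, where they are high, so the counts are a description. CLDN6, a claudin of embryonic epithelia, made up most of the sum, at 86.9 to 129.8 FPKM in IEC2, 202, 216 and 612 in IEC4 A, B and C, and 37.1 to 70.5 in IEC12. It rose by 1.53 ± 0.41 from IEC2 to IEC4 (limma adjusted p = 0.0159), a call that was lost without IEC2 B (adjusted p = 0.0554), and by 1.01 without IEC4 C. EPCAM and GRHL2 were listed at 0 in all IEC2 libraries, where KRT8 was at 12.9 to 20.3 FPKM, and CDH1, CLDN3, GRHL2 and ST14 were listed at 0 in all AOC libraries.

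All 9 amnion and trophoblast markers were found, and their summed FPKM was 9.38 to 10.4 in IEC2, 75.7 to 201 in IEC4, 13.5 to 25.8 in IEC12 and 0.815 to 1.18 in AOC. GABRP, a GABA receptor subunit found in amnion, made up most of the IEC4 sum, at 93.9, 64.6 and 183.7 FPKM, and rose by 4.61 ± 0.35 into IEC4 (limma adjusted p = 1.92e-05). Of the 6 tested, 4 rose into IEC4 (VTCN1, GATA3, GABRP and HAND1) and 2 fell (TFAP2A and ISL1), and from IEC4 to IEC12, 3 fell (VTCN1, GABRP and HAND1) and 2 rose (GATA3 and ISL1). The members of this list thus differed among themselves, and the TFAP2A call was lost without IEC2 A, B or C, IEC4 A or IEC4 B (adjusted p = 0.0511 to 0.0911). GATA3, a transcription factor of trophoblast, was at 1.16 to 2.92 FPKM in IEC4 and 7.66 to 15.6 in IEC12, a rise of 2.13 ± 0.28 (adjusted p = 0.000415), opposite to the keratins. ISL1, a transcription factor found in amnion and in heart progenitors, fell by 1.62 ± 0.22 into IEC4 (adjusted p = 0.000509) and rose by 1.91 ± 0.22 into IEC12 (adjusted p = 0.000225), opposite to the keratins in both steps. HAND1 and VTCN1 reached the filter only through IEC4. CDX2 was listed at 0 in every library of the 4 groups, and HAND1 and ELF5 were listed at 0 in IEC2. IEC4 C, the library with the highest keratin levels, also had the highest sums of both marker lists, at 8.20 times the mean of IEC4 A and B for CLDN4, 2.93 for CLDN6 and 2.32 for GABRP, whereas VIM in IEC4 C was 0.935 times that mean. Not all members of the lists were higher in IEC4 C. The ratio to the same mean was 0.444 for VTCN1, 1.30 for ISL1 and 0.776 for CLDN7, which was at most 0.0226 FPKM in IEC4.

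**Figure D4:**
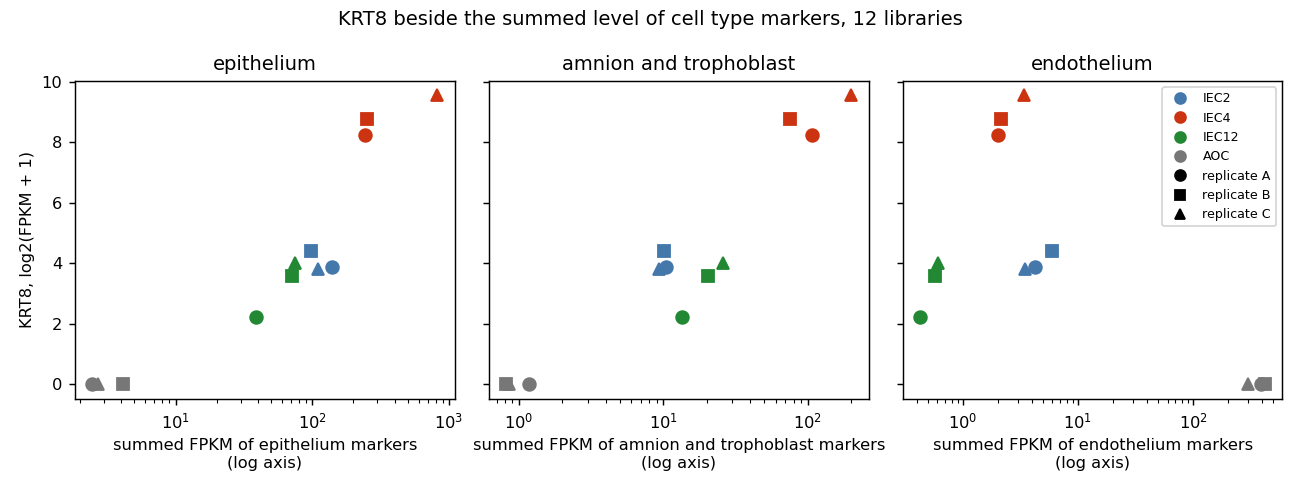
KRT8 as log2(FPKM + 1) on the vertical axis beside the summed FPKM of markers of epithelium, of amnion and trophoblast, and of endothelium on log horizontal axes, for the 12 libraries. Colours are groups and shapes are replicates. The IEC4 libraries are highest in KRT8 and in both of the first marker sums, and AOC is highest in endothelial markers, with KRT8 listed at or next to 0.

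The sums of the smooth muscle and fibroblast, endoderm and mesothelium lists did not stand above all other groups in IEC4. Of 10 smooth muscle and fibroblast markers, all found, the summed FPKM was 80.4 to 112 in IEC2, 50.2 to 63.4 in IEC4, 61.5 to 79.6 in IEC12, and 22.9 to 36.4 in AOC. COL3A1 made up most of this sum in the IEC libraries. Of 7 endoderm markers, 4 were found, with sums of 1.51 to 1.94 in IEC2, 2.75 to 5.95 in IEC4, 3.88 to 4.11 in IEC12 and 27.2 to 41.6 in AOC. Of 6 mesothelium markers, 2 were found, with sums of 3.31 to 4.79, 2.99 to 9.09, 1.16 to 1.80 and 5.63 to 7.77 in the same order of groups. In the IEC fit, 4, 3 and 2 genes of these lists were tested. Into IEC4, ACTA2, COL1A1, APOA1 and UPK1B were called higher and COL3A1 and WT1 lower, beside 24.8% and 12.5% of all genes. Into IEC12, ACTA2, COL1A1, APOA1 and UPK1B were called lower and COL3A1 and FOXA1 higher, beside 26.9% and 17.3%. ACTA2, COL1A1, APOA1 and UPK1B reached the filter only through IEC4. Of 8 markers of pluripotent cells, 3 were found (LIN28A among them), and their sum was 0 to 0.155 in IEC2, 3.36 to 6.45 in IEC4, 0.321 to 1.58 in IEC12 and 0.941 to 1.25 in AOC. This last sum was highest in IEC4, as the keratins were, and its part in their level was not tested. LIN28A made up most of the sum in IEC4. NANOG was at 0.236 to 0.530 FPKM in IEC4 against 0.248 to 1.07 in IEC12. DPPA2 was at 0.0599 to 0.192 FPKM in IEC4 against 0.941 to 1.25 in AOC. LIN28A, an RNA-binding protein of early embryonic cells, was the only gene of the list tested and was listed at 0 in IEC2. It was called higher in IEC4 than in IEC2 (limma adjusted p = 9.09e-05) and lower in IEC12 than in IEC4 (-2.05 ± 0.24, adjusted p = 0.000233). LIN28A reached the filter only through IEC4, where it was high, so these calls are a description.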

How the data were processed

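The authors sequenced RNA from porcine cells after Smart-Seq2 amplification and deposited 1 table of FPKM values per library. The submitters' processing notes name Bowtie2 2.2.3, TopHat2 2.0.12, Cufflinks 2.2.1 and the build susScr11. The annotation release and any scaling between libraries are not given in the sources used here. Amplified cDNA and a change of RNA composition between stages can both shift FPKM.

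The 12 libraries were grouped by their labels, and the iPS and S libraries were not analysed here. A table of gene names held symbols for 13998 of the 19681 identifiers, and positions came from RefSeq by symbol. limma 3.58.1 in R 4.3.3 (lmFit, contrasts.fit, eBayes with trend = TRUE) was run on log2(FPKM + 1), and a gene entered a fit when 3 or more of its libraries reached an FPKM of 1. The stages were compared in the 9 IEC libraries (10542 genes) and AOC in all 12 (11053 genes). A call needed a Benjamini-Hochberg adjusted p under 0.05 over all genes tested, and the script was tested on simulated data. The replicates are described as biological, but no source ties them to separate donors or cultures, so p-values measure only the spread between these libraries.

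The keratins and the gene lists were chosen with earlier results of these data known. Named are all keratins of the list, in each other list up to 4 genes with the largest differences among those called, and 3 genes per keratin with the highest r. KRT23, PKP2, DSP and the marker genes given with values were chosen after their values were seen, and some genes the rule allows are left out. A gene of the epithelial marker list is not reported here and entered none of its sums or counts. Figures were drawn with matplotlib 3.10.9 (Python 3.11.15, pandas 2.3.3, NumPy 2.4.6). Alternatives were median-of-ratios scaling, equal library totals, a pseudocount of 0.1, no filter, only the 2 groups compared, a replicate block, trend off, stricter limits (p and adjusted p under 0.001 and a log2 difference over 3), and each library left out. Read depth is unknown, so no floor or interval was computed.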

Additional observations from a re-analysis of the deposited data

How the results depend on the processing

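For the 4 keratins over 6 comparisons, 413 values under an alternative kept direction and call, 7 became called, 30 lost the call and 0 turned direction. The number of keratins called was 4 for IEC4 against IEC2 and for IEC12 against IEC4. It was 3 in both under the stricter limits, where KRT80 was not called, and 1 to 4 with 1 library left out. It was 1 whenever IEC4 A, B or C was missing, because KRT18, KRT7 and KRT80 then no longer reached the filter in 3 libraries. With the genes kept as tested with every library, an alternative chosen after seeing the data, it was 4 without any library. For IEC12 against IEC2 the number was 1, and 0 under the stricter limits, without the filter, and with any library left out. It was also 0 with only the 2 groups compared, where 1 keratin was tested and KRT80 was not. For AOC against IEC2 the number was 1, also with only the 2 groups compared, where 1 keratin was tested. A pseudocount of 0.1 and median-of-ratios scaling each gave 2, and it ranged from 1 to 2 with a library left out (2 without AOC C). For AOC against IEC4 it was 4, and 2 to 4 with a library left out (2 without IEC4 B or IEC4 C). It was 3 under the stricter limits, after median-of-ratios scaling, with a pseudocount of 0.1, without the filter and with only the 2 groups compared. The call lost each time was that of KRT80. For AOC against IEC12 it was 2, and 1 under the stricter limits and with only the 2 groups compared, where 3 keratins were not tested, and 4 with a pseudocount of 0.1. The causes of the changes in the AOC comparisons were not tested.

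Under the stricter limits all genes called numbered 124 in place of 3932 for IEC4 against IEC2, 99 in place of 4660 for IEC12 against IEC4, 129 in place of 4592 for IEC12 against IEC2, and 605, 571 and 487 in place of 7050, 7639 and 6469 for AOC against IEC2, IEC4 and IEC12. Replicate letters shared only a number, as deviations of same-lettered libraries correlated from -0.51 to 0.25. With the replicate block the keratins called numbered 4, 4, 1, 1, 4 and 2 in the comparisons in the order above, and KRT8 rose by 4.83 from IEC2 to IEC4 (limma adjusted p = 7.87e-05). The block changed no keratin call. The unknown read depth limits what levels near 0 can show.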
